A study of Mus musculus with 18 samples.

Results

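The clustered protocadherins were followed through the differentiation of wt, Dnmt1-/- and TKO ESCs into embryoid bodies (EBs). A row of the array table was taken as a member when its gene symbol entry held a Pcdha or Pcdhac, a Pcdhb, or a Pcdhga, Pcdhgb or Pcdhgc gene, and 23 of 35512 rows met this rule. The alpha cluster was held by 1 row that carries 14 symbols, Pcdha1 to Pcdha12, Pcdhac1 and Pcdhac2, which cannot be told apart on it. The beta cluster was held by 22 rows of 1 symbol each, Pcdhb1 to Pcdhb22. No row carried a gamma symbol, and the gamma cluster is not analysed here. In the RefSeq gene table (GRCm38.p6) the symbols of all 23 rows lie on chromosome 18, alpha first, then beta in number order.

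Transcripts were measured on Affymetrix Mouse Gene ST arrays in the J1 line of strain 129Sv/Jae and its methyltransferase knockouts. The groups were TKO, which lacks Dnmt1, Dnmt3a and Dnmt3b, Dnmt1-/-, which lacks the maintenance methyltransferase alone, and wt, each as undifferentiated ESCs at day 0 and as hanging drop EBs at day 4 and day 16. Each of the 9 groups had 2 arrays, labelled biological replicates 1 and 2, 18 in all, and array medians lay between 5.77 and 5.90 on the log2 scale. The sources name a line for each genotype and no second clone of it, so genotype and line cannot be told apart. In ESCs the deleted genes were called lower than in wt, Dnmt1 (-1.27), Dnmt3a (-1.62) and Dnmt3b (-2.52) in TKO and Dnmt1 (-1.02) in Dnmt1-/-. At day 16 this did not hold for each of them: Dnmt1 stood at 8.40 and 8.43 in TKO EBs, 8.56 and 8.86 in Dnmt1-/- EBs and 9.16 and 9.20 in wt EBs, and Dnmt3b at 7.52 and 7.71 in TKO EBs against 7.16 and 7.41 in wt EBs (0.33, adjusted p = 0.48, limma). The Dnmt1 difference of TKO from wt EBs was -0.76 (adjusted p = 0.0072, limma), short of the 2-fold line of a call. In ESCs Dnmt3b had read 7.33 and 7.45 in TKO and 9.80 and 10.00 in wt, so its wt level was lower at day 16. Probes outside a deleted part can still read a transcript.

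Clustered protocadherins are cell surface adhesion molecules of the cadherin family, best known from neurons, where each cell uses its own mix of isoforms and matching isoforms on facing membranes recognise each other. The genes stand in tandem, and each variable exon has its own promoter, which is chosen with CTCF and cohesin and, in mice, in concert with DNA methylation laid down by Dnmt3b. Pcdhb genes are single-exon genes for transmembrane proteins without the shared cytoplasmic tail of the alpha and gamma families, while the C-type genes, here Pcdhac1 and Pcdhac2, are regulated apart from the others.

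The members were dim in every group. Their mean log2 signal over the 18 arrays ran from 2.24 for Pcdhb9 to 5.22 for Pcdhb22, and all 23 lay under the median of the array on 15 of the 18 arrays. The exceptions were Pcdhb22 and, on wt day 16 replicate 1, Pcdhb11 beside it. The alpha row averaged 4.83. Olfactory receptor rows were taken as a dim comparator since these genes serve the nose. Their 95th percentile was 5.15 in TKO, 4.95 in Dnmt1-/- and 5.08 in wt at day 16, and 5.20, 5.19 and 5.18 in ESCs. A mean above the percentile of its own group was reached by 1 beta row in TKO, 3 in Dnmt1-/- and 6 in wt at day 16. In TKO, Dnmt1-/- and wt ESCs it was reached by 2, 1 and 2 beta rows. The cutoffs differ, so these counts are not strictly comparable between groups. The 6 in wt at day 16 were Pcdhb4, Pcdhb8, Pcdhb11, Pcdhb15, Pcdhb16 and Pcdhb22. Differences at levels this near the floor are compressed on an array, and only 5 members are left where the dimmest 30% of all rows are removed.

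**Figure D1:**
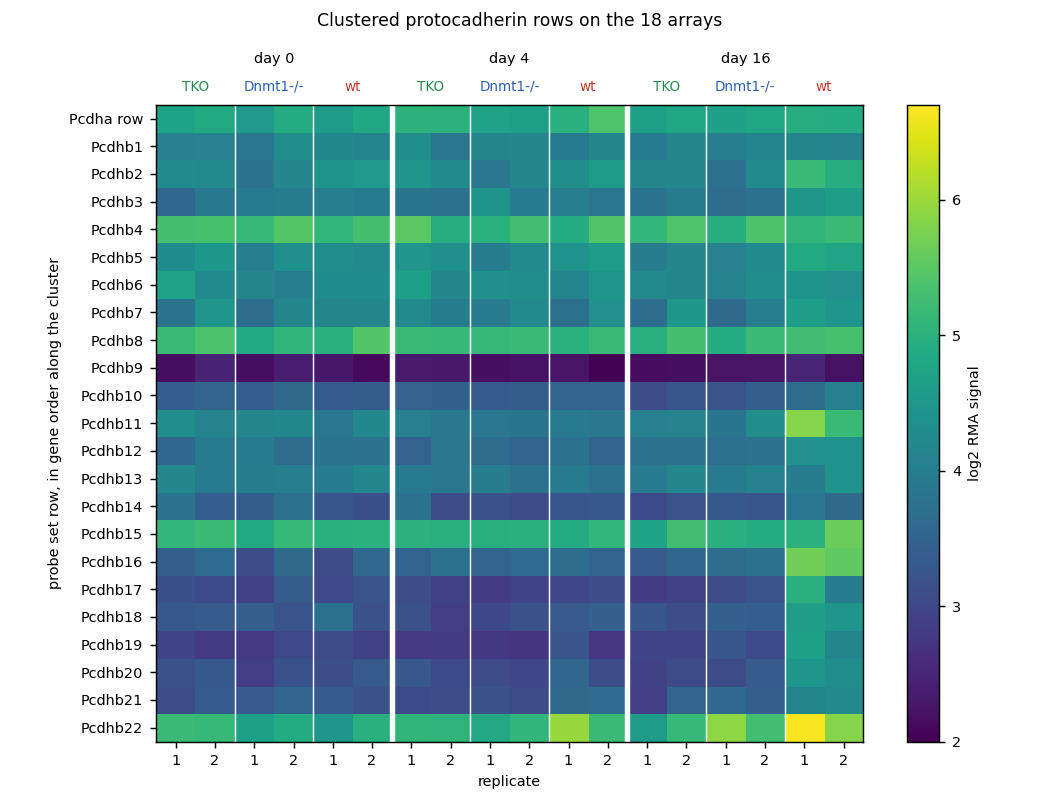
Log2 RMA signal (colour) of the 23 clustered protocadherin rows (vertical, in gene order) on the 18 arrays (horizontal, by day, genotype and replicate). The wt day 16 arrays are brighter than the rest for Pcdhb11 and from Pcdhb16 to Pcdhb21, while rows such as Pcdhb4, Pcdhb8 and Pcdhb9 vary little.

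At day 16 part of the beta cluster was lower in both mutants than in wt EBs, and no member was called higher. A member was called where it differed by 1 or more on the log2 scale, which is 2-fold, with an adjusted p under 0.05 in limma (Benjamini-Hochberg over all rows). In TKO EBs 7 of 23 members were called lower, against 3.43% of all rows, and in Dnmt1-/- EBs 7 of 23, against 1.36% of all rows. The comparisons share the wt day 16 arrays, so a high wt array enters both. The median log2 fold change of the members was -0.66 in TKO EBs and -0.66 in Dnmt1-/- EBs, with medians over all rows of 0.05 and -0.03.

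Pcdhb16 had the largest measured difference of the members in both mutants. Its log2 signal was 3.36 and 3.54 in TKO EBs, 3.66 and 3.74 in Dnmt1-/- EBs, and 5.68 and 5.55 in wt EBs of day 16 (replicate 1 first, here and below). Both wt arrays stood far above all 4 mutant arrays, and the wt replicates lay close together. The difference from wt was -2.16 in TKO (SE 0.20, adjusted p = 1.3e-05, limma) and -1.92 in Dnmt1-/- (SE 0.20, adjusted p = 7.5e-05, limma). These are differences of array signal: the wt arrays lay above the 95th percentile of the olfactory receptor rows (5.08), and the mutant arrays lay under it (5.15 in TKO and 4.95 in Dnmt1-/-), so no fold change of the transcript is given. None is given for the other members either. For Pcdhb11 the arrays read 4.05 and 4.11 in TKO, 3.83 and 4.32 in Dnmt1-/- and 5.85 and 5.18 in wt. The mutant arrays did not reach the wt arrays, and the difference from wt was -1.44 (SE 0.22) in TKO and -1.44 (SE 0.22) in Dnmt1-/-, with adjusted p of 0.00069 and 0.0014 (limma).

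The run from Pcdhb17 to Pcdhb20 also had wt as the highest group. Pcdhb17 read 2.83 and 2.93 in TKO, 3.10 and 3.22 in Dnmt1-/- and 4.99 and 3.96 in wt. Pcdhb18 read 3.27 and 3.10 in TKO, 3.45 and 3.41 in Dnmt1-/- and 4.62 and 4.45 in wt. For both genes the wt arrays were the high ones, but the wt replicates of Pcdhb17 were 1.03 apart, the widest gap of any member at wt day 16. Pcdhb19 read 2.98 and 2.99 in TKO, 3.26 and 3.06 in Dnmt1-/- and 4.67 and 4.14 in wt, and Pcdhb20 read 2.91 and 3.09 in TKO, 3.10 and 3.34 in Dnmt1-/- and 4.47 and 4.31 in wt. Again no mutant array reached a wt array. But all day 16 arrays of Pcdhb17 to Pcdhb20, wt and mutant, lay under the 95th percentile of the olfactory receptor rows. That percentile was 5.15 in TKO, 4.95 in Dnmt1-/- and 5.08 in wt. The log2 differences of these 4 genes from wt lay between -1.60 (Pcdhb17) and -1.36 (Pcdhb18) in TKO and between -1.32 (Pcdhb17) and -1.11 (Pcdhb18) in Dnmt1-/-, and all 8 were called.

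Pcdhb22 and Pcdhb2 were called in 1 mutant each. Pcdhb22, the brightest member, read 4.56 and 5.14 in TKO, 5.89 and 5.28 in Dnmt1-/- and 6.65 and 5.84 in wt EBs. TKO lay under both wt arrays (-1.40, SE 0.32, adjusted p = 0.012, limma), whereas Dnmt1-/- replicate 1 overlapped the wt range (-0.66, 95% interval -1.36 to 0.04, adjusted p = 0.35). TKO and Dnmt1-/- themselves differed by -0.74 for this gene (unadjusted p = 0.041, adjusted p = 0.33, limma), so a difference between the mutants was not called. Pcdhb2 read 4.18 and 4.18 in TKO, 3.74 and 4.25 in Dnmt1-/- and 5.17 and 4.93 in wt. It was called in Dnmt1-/- (-1.05, SE 0.19, adjusted p = 0.0054, limma) and missed the 2-fold line in TKO (-0.87, SE 0.19, adjusted p = 0.0086).

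**Figure D2:**
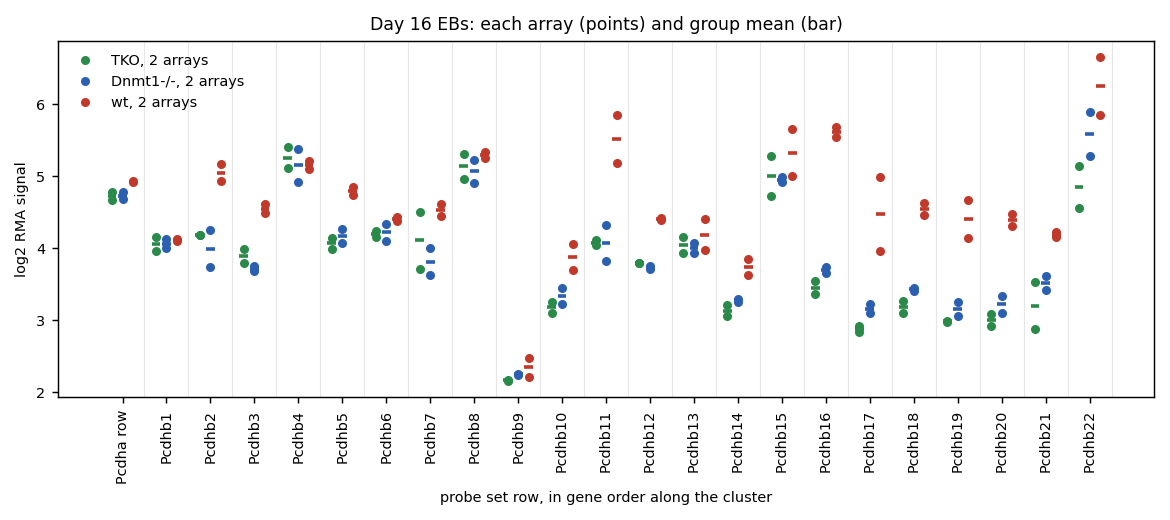
Log2 RMA signal (vertical) of each member (horizontal, in gene order) in day 16 EBs, with points for the 2 arrays of TKO, Dnmt1-/- and wt and a bar for each group mean. The wt arrays stand clear of the mutant arrays for Pcdhb11 and from Pcdhb16 to Pcdhb20, while for Pcdhb1, Pcdhb4 and Pcdhb13 the groups overlap.

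Further members lay under wt by less than 2-fold. The adjusted p alone, without the fold line, was under 0.05 for 13 members in TKO (7.08% of all rows, counting lower ones) and 11 in Dnmt1-/- (2.69% of all rows), all of them lower than in wt. For Pcdhb21 the arrays read 2.88 and 3.53 in TKO, 3.61 and 3.43 in Dnmt1-/- and 4.15 and 4.22 in wt, with differences of -0.98 (adjusted p = 0.0034) and -0.67 (adjusted p = 0.058, limma). Pcdhb3, Pcdhb5, Pcdhb10 and Pcdhb12 differed from wt by -0.73 to -0.61 in TKO and by -0.84 to -0.54 in Dnmt1-/-. Both mutant arrays lay below both wt arrays for 17 members in TKO and 18 in Dnmt1-/-, a pattern seen for 20.7% and 22.3% of all rows.

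The calls in Dnmt1-/- rest partly on wt replicate 1, the higher wt array for 15 of the 23 members. Without it 4 calls were left (Pcdhb11, Pcdhb16, Pcdhb18 and Pcdhb20), and the differences of Pcdhb2, Pcdhb17 and Pcdhb19 were -0.93, -0.80 and -0.99, while in TKO Pcdhb22 lost its call at -0.99, and also without TKO replicate 1 at -1.11. Pcdhb2 also lost its call without Dnmt1-/- replicate 1 (-0.80), and Pcdhb17 lost its call in Dnmt1-/- without either Dnmt1-/- array (-1.25 and -1.38). With only the 4 arrays compared in the fit, 1 call was left in Dnmt1-/- (Pcdhb16) and 5 in TKO.

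In wt cells members of the beta cluster were called higher at day 16 than at the earlier days. Between day 0 and day 16, 7 of 23 members rose, against 6.17% of all rows, and none fell. Without the fold line 13 were higher, against 11.6% of all rows. Between day 4 and day 16, 6 of 23 rose, against 3.94% of all rows, and 3 of them with only the arrays compared in the fit. Between day 0 and day 4 no member was called, against 4.51% of all rows, and 2 had an unadjusted p under 0.05 (limma, 21.3% of all rows), Pcdhb22 at 0.86 and the alpha row at 0.49 on the log2 scale. These wt comparisons use the wt day 16 arrays that also entered the comparisons with the mutants.

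Pcdhb16 in wt read 3.09 and 3.60 at day 0, 3.71 and 3.52 at day 4, and 5.68 and 5.55 at day 16. The first days overlapped and the last stood apart, with a change of 2.27 between day 0 and day 16 (SE 0.20, adjusted p = 5.9e-06, limma). Pcdhb11 read 3.84 and 4.19 at day 0, 3.95 and 3.89 at day 4, and 5.85 and 5.18 at day 16, a change of 1.50 over the whole culture (SE 0.22, adjusted p = 0.00025). Pcdhb19 read 3.08 and 2.90, then 3.24 and 2.75, then 4.67 and 4.14 on those days, a change of 1.41 (SE 0.19, adjusted p = 0.00019, limma). In these genes the level of day 4 was that of the ESCs within the spread of the arrays. Pcdhb17 (1.35), Pcdhb20 (1.16) and Pcdhb18 (1.10) were also called over the whole culture. Pcdhb22 took another course, with 4.47 and 4.97 at day 0, 5.97 and 5.20 at day 4 and 6.65 and 5.84 at day 16. Its day 4 arrays lay above the ESCs and overlapped day 16, and only the change over the whole culture was called (1.52, SE 0.32, adjusted p = 0.0039, limma).

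**Figure D3:**
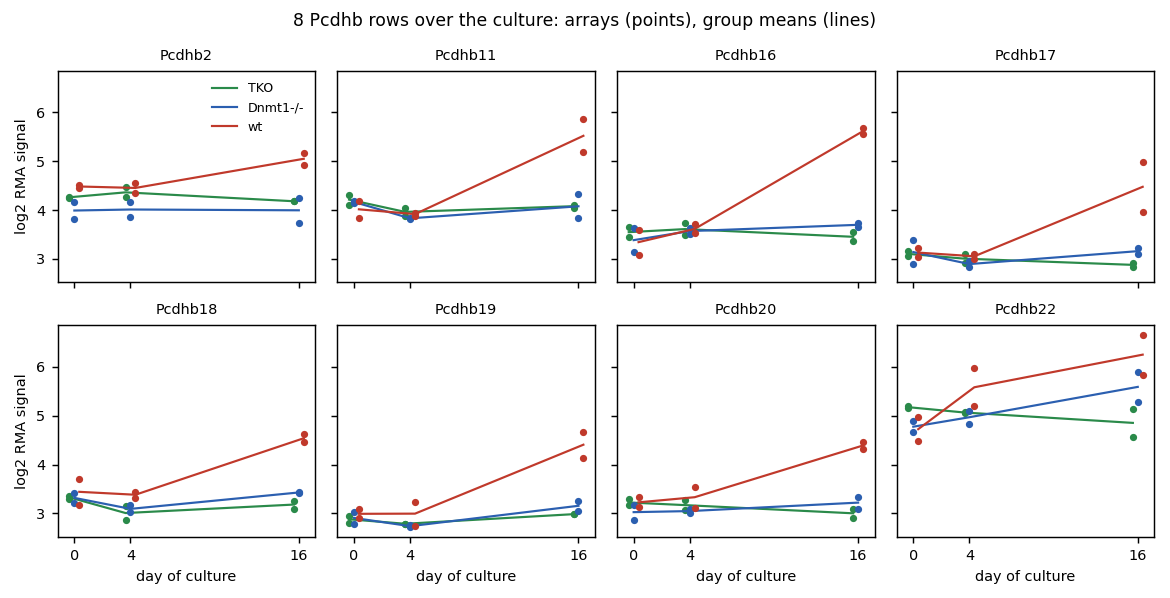
Log2 RMA signal (vertical) over days 0, 4 and 16 of culture (horizontal) for the 8 Pcdhb rows called at day 16 against wt or over the wt culture, with points for arrays and lines for the means of TKO, Dnmt1-/- and wt. The lines lie together at days 0 and 4 for Pcdhb11 and Pcdhb16 to Pcdhb20, and at day 16 wt lies above both mutants.

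The call of Pcdhb17 over the wt culture was lost without wt day 16 replicate 1 (0.83), and that of Pcdhb18 without wt day 0 replicate 2 (0.83). Both wt day 16 arrays lay above both day 0 arrays for 18 members (23.9% of all rows). For 12 members, 52.2%, both wt day 16 arrays were the highest of all 18 arrays, which held for 5.97% of all rows: Pcdhb2, Pcdhb3, Pcdhb5, Pcdhb10, Pcdhb11, Pcdhb12 and every row from Pcdhb16 to Pcdhb21.

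In the mutants no member was called between any days. In TKO cells 0 of 23 were called between day 0 and day 16, against 2.50% of all rows, with 1 at an unadjusted p under 0.05 (limma, 16.9% of all rows), Pcdhb14 at -0.46. In Dnmt1-/- cells 0 of 23 were called over the same days, against 6.90% of all rows, with 1 at an unadjusted p under 0.05 (28.0% of all rows), Pcdhb22 at 0.81. Pcdhb16 read 3.45 and 3.65 at day 0, 3.50 and 3.73 at day 4 and 3.36 and 3.54 at day 16 in TKO, and 3.14 and 3.63, 3.50 and 3.64, and 3.66 and 3.74 on those days in Dnmt1-/-. All 12 mutant arrays of this gene lay within the range from 3.14 to 3.74, and its change over the culture had a 95% interval of -0.52 to 0.33 in TKO and -0.11 to 0.74 in Dnmt1-/-.

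For the shorter spans in TKO, 0 of 23 members were called from day 0 to day 4 (3.17% of all rows), with 0 at an unadjusted p under 0.05 (18.1% of all rows), and 0 from day 4 to day 16 (1.41% of all rows), with 0 at an unadjusted p under 0.05 (limma, 14.9% of all rows). In Dnmt1-/- the counts were 0 from day 0 to day 4 (4.61% of all rows), with 0 at an unadjusted p under 0.05 (20.8% of all rows), and 0 from day 4 to day 16 (2.70% of all rows), with 1, Pcdhb3 at -0.47, at an unadjusted p under 0.05 (limma, 16.9% of all rows).

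**Figure D4:**
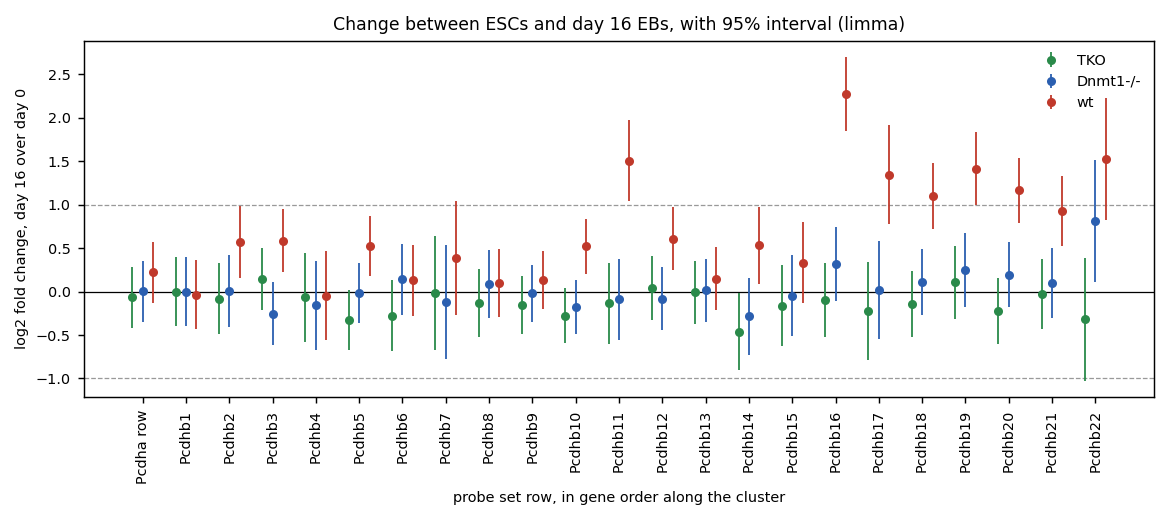
Log2 fold change of day 16 over day 0 (vertical, points) with its 95% interval (lines) for each member (horizontal, in gene order) in TKO, Dnmt1-/- and wt. Dashed lines mark the 2-fold line. The wt points for Pcdhb11, Pcdhb16 to Pcdhb20 and Pcdhb22 pass it, up to 2.27 for Pcdhb16, and no mutant point does.

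The change over the culture was then compared between genotypes in the same fit. In TKO it was called lower than in wt for 7 of 23 members, against 2.22% of all rows, by -2.37 for Pcdhb16 (SE 0.28, adjusted p = 0.00048), -1.85 for Pcdhb22 (SE 0.46, adjusted p = 0.036), -1.64 for Pcdhb11 (SE 0.30, adjusted p = 0.0081) and between -1.57 and -1.24 for Pcdhb17 to Pcdhb20 (limma). In Dnmt1-/- it was called lower than in wt for 2 of 23, against 0.749% of all rows, by -1.96 for Pcdhb16 (SE 0.28, adjusted p = 0.005) and -1.59 for Pcdhb11 (SE 0.30, adjusted p = 0.026, limma). Pcdhb17 to Pcdhb20 differed by -1.33 to -0.97 there, with adjusted p between 0.063 and 0.13. The changes in TKO and Dnmt1-/- differed from each other for 0 of 23 members (0.152% of all rows), with 1, Pcdhb22 at -1.14, at an unadjusted p under 0.05 (limma, 7.73% of all rows). Single arrays moved these counts. In TKO the count was 3 without wt day 0 replicate 2 and 4 without either TKO day 0 array. In Dnmt1-/- Pcdhb11 lost its call without wt day 16 replicate 1 (-1.26), wt day 0 replicate 1 (-1.42), Dnmt1-/- day 16 replicate 1 (-1.34) or either Dnmt1-/- day 0 array (-1.62 and -1.56). The Dnmt1-/- count was 1 without wt day 16 replicate 1, Dnmt1-/- day 16 replicate 1 or either Dnmt1-/- day 0 array, and 4 without wt day 16 replicate 2. Pcdhb16 kept its call without each of these arrays in turn and lost it with only the compared arrays in the fit (adjusted p = 0.067), where the counts were 0 in Dnmt1-/- and 2 in TKO.

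Position along the cluster went with the size of the wt change. Over the 11 rows from Pcdhb12 to Pcdhb22 the median change in wt between day 0 and day 16 was 1.10 on the log2 scale and 6 rows were called, and over the 11 rows from Pcdhb1 to Pcdhb11 it was 0.39 and 1 row was called. The medians of the same stretches were -0.15 and -0.13 in TKO, and 0.10 and -0.02 in Dnmt1-/-. Across the 22 beta rows the order of the genes and the wt change had a Pearson r of 0.66 and a Spearman rho of 0.67. All rows were read on the same 4 arrays, neighbouring Pcdhb genes are similar in sequence, and probes can read a close paralog, so the rows are not independent. Pcdhb11 stood apart in its own stretch, and Pcdhb13 and Pcdhb15 were low in theirs, at 0.15 and 0.33.

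The other members showed little. The alpha row, the only one with C-type genes, read 4.67 and 4.78 in TKO, 4.69 and 4.77 in Dnmt1-/- and 4.93 and 4.92 in wt EBs of day 16, a difference of -0.20 in both mutants (95% interval -0.55 to 0.15 in TKO and -0.55 to 0.16 in Dnmt1-/-). Its highest arrays were those of wt day 4, at 4.98 and 5.40. With 14 transcripts on a row, a change of 1 of them would be diluted by the others. Pcdhb1, Pcdhb4, Pcdhb8, Pcdhb9 and Pcdhb13 had differences between -0.23 and 0.10 in either mutant at day 16 and changes between -0.05 and 0.15 in wt over the culture. They include Pcdhb4 and Pcdhb8, next to Pcdhb22 the brightest beta rows, and Pcdhb9, the dimmest. Pcdhb6, Pcdhb7, Pcdhb14 and Pcdhb15 lay between -0.72 and -0.18 at day 16 without an adjusted p under 0.05. For Pcdhb7 the TKO arrays were 3.71 and 4.51 against 4.62 and 4.44 in wt, with overlap.

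Before day 16 no member was called between genotypes. Between TKO and wt, 0 of 23 were called in ESCs (0.304% of all rows), with 0 at an unadjusted p under 0.05 (8.73% of all rows), and 0 at day 4 (2.92% of all rows), with 1, Pcdhb21 at -0.54, at an unadjusted p under 0.05 (limma, 15.4% of all rows). Between Dnmt1-/- and wt, 0 were called in ESCs (0.355% of all rows), with 1, Pcdhb2 at -0.49, at an unadjusted p under 0.05 (5.83% of all rows). At day 4, 0 were called (0.738% of all rows), with 4 at an unadjusted p under 0.05 (limma, 5.83% of all rows), the alpha row, Pcdhb2, Pcdhb5 and Pcdhb21, between -0.51 and -0.39. In ESCs the differences ran from -0.22 to 0.45 in TKO and from -0.49 to 0.36 in Dnmt1-/-. Between TKO and Dnmt1-/- the counts called were 0 in ESCs (0.00563% of all rows), 0 at day 4 (0.848%) and 0 at day 16 (1.07%), with 0, 1 and 1 members at an unadjusted p under 0.05 (limma, 3.44%, 10.0% and 13.8% of all rows). At day 16 the members differed between TKO and Dnmt1-/- by -0.74 to 0.29.

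The genes next to the clusters were counted in the same comparisons. Of all rows, 3.43% were called lower in TKO and 1.36% in Dnmt1-/- at day 16, and 6.17% rose in wt over the culture. These shares apply to all the gene lists below. The shares of all rows called the other way are not given here. Of 19 genes around the locus, 1 was higher and 1 lower in TKO, 0 were higher and 1 lower in Dnmt1-/- at day 16, and 1 rose and 3 fell in wt over the culture. Their median log2 differences were 0.04, 0.07 and 0.01, against 0.05, -0.03 and -0.07 over all rows in the same comparisons. The gene that was lower in both mutants was Cd14, a lipopolysaccharide co-receptor of myeloid cells that lies before the alpha cluster. It read 4.65 and 4.62 in TKO, 5.10 and 5.04 in Dnmt1-/- and 7.01 and 6.93 in wt EBs, differences of -2.34 and -1.90 from wt. Taf7, a TFIID subunit that stands between the beta and gamma clusters, was higher in TKO by 1.12 (adjusted p = 0.038, limma) and fell by 1.46 in wt. Diaph1, an actin nucleator behind the gamma cluster, and Wdr55 fell in wt by 1.25 and 1.15.

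Of 18 genes linked to promoter choice at the locus, 0 were higher and 1 lower in TKO, and 1 was higher and 0 lower in Dnmt1-/- at day 16, with medians of 0.12 and 0.14. Dnmt3a, deleted in TKO, was lower there (-2.18). Dnmt3b, also deleted in TKO, read 7.52 and 7.71 in TKO, 8.85 and 8.87 in Dnmt1-/- and 7.16 and 7.41 in wt EBs, and was called higher in Dnmt1-/- (1.58) and not called in TKO (0.33). Over the wt culture Dnmt3b fell by 2.62 and Rest, the repressor of neuronal genes, by 1.79. The insulator protein gene Ctcf stood at 9.21 and 9.30 in TKO, 9.26 and 9.53 in Dnmt1-/- and 9.32 and 9.52 in wt EBs, with overlap. Short of the 2-fold line, Rest (0.89, adjusted p = 0.0021) and Smchd1 (0.62, adjusted p = 0.009) were higher in TKO than in wt EBs (limma). So were Wapl (0.54, adjusted p = 0.014) and Ezh2 (0.50, adjusted p = 0.02, limma), while Dnmt1, deleted in TKO, was lower (-0.76). Of 15 intracellular partners 12 were measured, with 0 higher and 2 lower in TKO, 0 higher and 1 lower in Dnmt1-/- and 2 higher in wt over the culture (medians -0.28, -0.18 and 0.26). Marcks, a membrane-bound actin regulator, was lower in TKO (-1.90) and in Dnmt1-/- (-1.02), and Adam10, a protease that can shed ectodomains of cell surface proteins, was lower in TKO (-1.05). In wt Marcks rose by 2.35 and Adam10 by 2.61.

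Protocadherins outside the clusters were also called. Of 20 non-clustered protocadherins and atypical cadherins, 0 were higher and 7 lower in TKO (3.43% of all rows lower) at day 16. In Dnmt1-/- 0 were higher and 4 lower (1.36% of all rows lower). In wt 6 rose and none fell over the culture (6.17% of all rows higher). The median differences of the list were -0.30, -0.44 and 0.31. Pcdh18 read 6.39 and 5.57 in TKO, 8.07 and 7.83 in Dnmt1-/- and 10.08 and 9.69 in wt EBs. The groups were stepped without overlap, with differences of -3.90 and -1.94 from wt. Pcdh11x differed by -2.18 and -2.01, Fat4, a planar polarity cadherin, by -1.93 and -1.14, and Pcdh9 by -1.42 and -1.48 in TKO and Dnmt1-/-, and Pcdh7 by -1.62 in TKO. In wt these 5 rose by between 1.45 (Pcdh9) and 3.97 (Pcdh18).

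Marker genes of the cells in the culture moved with the members in part. The arrays are of whole EBs, so fewer cells of a type and less RNA per cell cannot be told apart. Of 16 neuronal markers 15 were measured: 0 rose and 3 fell in wt over the culture (Ina by 3.83, Stmn2 by 3.57, Tubb3 by 1.91), 2 were higher and 1, Gap43, lower in TKO, and 2 were higher and 0 lower in Dnmt1-/- at day 16. Ina (9.63 and 9.64), Stmn2 (10.23 and 9.94) and Tubb3 (8.36 and 8.11) were already high in undifferentiated wt ESCs. Their signal is thus not particular to neurons here, and their fall is no measure of neurons. The median differences of the 15 neuronal markers were -0.79 in wt over the culture, 0.21 in TKO and 0.04 in Dnmt1-/-. Their mean log2 level was 6.12 and 6.15 in TKO, 5.88 and 5.95 in Dnmt1-/- and 5.83 and 5.62 in wt EBs. The sum of their log2 signals ran from 91.9 to 92.3 in TKO, from 88.2 to 89.2 in Dnmt1-/- and from 84.3 to 87.4 in wt. This mean and sum include Ina, Stmn2 and Tubb3 and are thus no measure of neurons either. In day 16 EBs Ina read 7.54 and 8.11 in TKO against 5.82 and 5.79 in wt. Stmn2 read 8.77 and 8.73 against 6.94 and 6.10, while Tubb3 overlapped (6.02 and 6.71 against 6.27 and 6.38). Of 10 neural progenitor markers, 9 were measured, 0 were called in either mutant at day 16, and Pax6 fell by 1.28 in wt.

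The mean of the stroma and mesoderm markers, like the median of the beta rows, was highest in wt EBs of day 16, although Pdgfra was highest in Dnmt1-/- EBs of day 16 (10.40 and 10.39, against 9.73 and 10.07 in wt) and Tbx20 in wt EBs of day 4 (9.14 and 9.04). All 10 rose in wt over the culture (median 4.31), against 6.17% of all rows. At day 16, 9 were lower in TKO (median of the list -3.23) and 5 in Dnmt1-/- (median -1.47), against 3.43% and 1.36% of all rows. Their mean log2 level was 7.08 and 6.45 in TKO, 9.06 and 8.71 in Dnmt1-/- and 10.25 and 10.27 in wt EBs, with sums of log2 signals of 64.5 to 70.8, 87.1 to 90.6 and 102 to 103. Lum and Dcn, matrix proteoglycans of fibroblasts, differed from wt by -6.39 and -6.60 in TKO and by -3.15 and -2.17 in Dnmt1-/-. Here Dnmt1-/- lay between TKO and wt, and 7 of the 10 were called lower in TKO than in Dnmt1-/- (1.07% of all rows called, both directions together). The mean of the 10 ESC markers ran the other way at day 16, with a log2 level of 10.08 and 10.06 in TKO, 9.24 and 9.03 in Dnmt1-/- and 7.76 and 7.36 in wt. Of 8 endoderm markers, 0 were higher and 3 lower in TKO and 1 was higher and 1 lower in Dnmt1-/-, and of 5 endothelial markers 0 were called in either. The part of any of these cells in the levels of the Pcdhb rows was not tested.

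**Figure D5:**
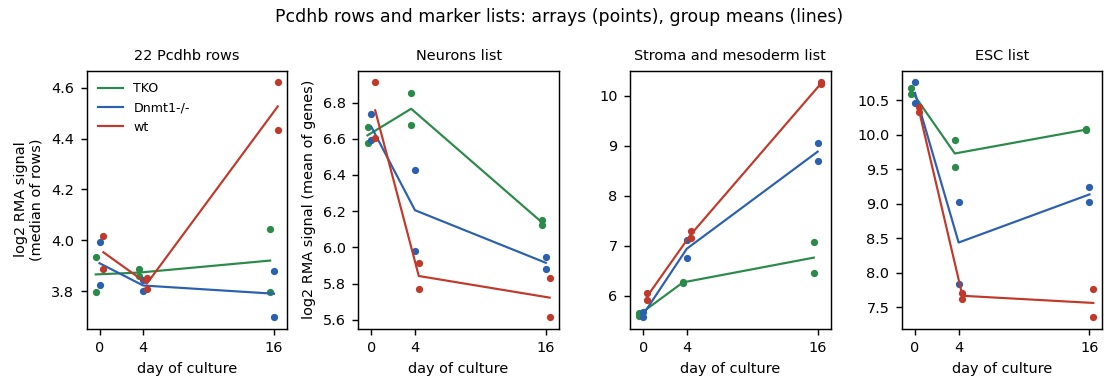
Log2 RMA signal (vertical) over days 0, 4 and 16 of culture (horizontal) in TKO, Dnmt1-/- and wt, as the median of the 22 Pcdhb rows and as the mean of the neuronal, stroma and mesoderm, and ESC marker lists, with points for arrays and lines for group means. The Pcdhb median is highest on the wt day 16 arrays (4.62 and 4.43), where the stroma and mesoderm mean is also highest (10.25 and 10.27). The neuronal mean is 5.83 and 5.62 on those arrays and 5.77 and 5.91 in wt at day 4. It includes Ina, Stmn2 and Tubb3, which were already high in wt ESCs, so it is no measure of neurons. Each panel has its own vertical scale.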

How the data were processed

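Total RNA of ESCs and EBs was hybridised to Affymetrix Mouse Gene ST arrays. The authors summarised the arrays with RMA and deposited the resulting log2 values, one for each probe set, and these were analysed as they stand. The RMA version, its probe annotation and any filter were not given in the sources used here. Gene symbols came from the platform annotation (21789 rows with 1 symbol, 1621 with several, 12102 with none). Groups were taken from the sample labels, 2 arrays each, and 0 value columns were left unused. All 35512 rows were fitted as 9 group means on the 18 arrays with limma 3.58.1 in R 4.3.3 (9 residual and 3.32 prior degrees of freedom), and 21 comparisons were contrasts of these means. The fit was tested on simulated data. A member was called at a log2 difference of 1 or more in size with an adjusted p under 0.05 (Benjamini-Hochberg over all rows within a comparison). Differences are mutant minus wt, TKO minus Dnmt1-/-, or the later day minus the earlier one. The number of arrays limits the precision, with a median SE of 0.19 for a member in a comparison of 2 groups.

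The members and the gene lists were chosen with earlier results of these data known. By rule, the text names the C-type row, up to 6 called rows each way per comparison of a mutant with wt at day 16 or of day 16 with day 0, the highest and lowest rows, and rows whose change differed between genotypes. Pcdhb2, Pcdhb21 and the remaining members were described after their values were seen, to account for every row. Of the lists, up to 4 called genes by size of change were taken, and Pcdh1 and Pcdh12 stand in both the neighbour and the non-clustered list. The single levels of the methyltransferases, Ctcf, Pdgfra and Tbx20, Pcdh7 in TKO, and the Lum and Dcn values in Dnmt1-/- were chosen after their values were seen. So were the day 16 levels of Ina, Stmn2 and Tubb3 and the differences of Rest, Smchd1, Wapl and Ezh2 in TKO. Alternatives were array medians subtracted, a further quantile normalization, a filter on dim rows, trend and robust variance, a replicate block, only the arrays compared, each array left out, and, chosen after seeing the data, no fold line. The chromosome and gene order came from a gene table whose build need not be that of the arrays, so no coordinates and no sequences are given.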

Additional observations from a re-analysis of the deposited data

Results flagged for a closer look

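A total of 9 results were marked because the change between day 0 and day 16 differed between genotypes in a test of that difference itself (limma, adjusted over all rows). All of them were lower in the mutant, and all set a mutant against the same wt arrays. For TKO minus wt the differences on the log2 scale were -2.37 for Pcdhb16 (adjusted p = 0.00048), -1.85 for Pcdhb22 (adjusted p = 0.036), -1.64 for Pcdhb11 (adjusted p = 0.0081), -1.57 for Pcdhb17 (adjusted p = 0.028), -1.38 for Pcdhb20 (adjusted p = 0.006), -1.31 for Pcdhb19 (adjusted p = 0.016) and -1.24 for Pcdhb18 (adjusted p = 0.012). For Dnmt1-/- minus wt they were -1.96 for Pcdhb16 (adjusted p = 0.005) and -1.59 for Pcdhb11 (adjusted p = 0.026). With 2 arrays in a group, single arrays were not screened for outliers.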

How the results depend on the processing

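Of the 21 comparisons 6 had members called, and 52 of their 74 alternatives stayed within 1.5 times the count while 22 did not. The other 15 had a count of 0, and it was 0 in all 169 of their alternatives. These counts were compared without regard to direction. In 383 alternatives of 34 single differences, 50 lost their call. The 383 include those of the alpha row, which had no call to lose, and those without the fold line, which cannot lose one. Members removed by the filter on dim rows are not counted, so these numbers give no rate of loss. No single difference that was called in the main fit or in the alternative changed sign. Without the dimmest 30% of rows only 5 members were tested, and the counts were 1 in TKO against wt, 0 in Dnmt1-/- against wt, 1 in wt between day 0 and day 16, 0 in wt between day 4 and day 16, and 1 and 0 for the change in TKO and in Dnmt1-/- against that in wt, since most members were removed. With only the arrays compared in the fit, the counts were 1 in Dnmt1-/- against wt, 3 in wt between day 4 and day 16, and 2 and 0 for the change in TKO and Dnmt1-/- against wt. Without the fold line they were 13 in TKO and 11 in Dnmt1-/- against wt (7.08% and 2.69% of all rows lower) and 13 in wt between day 0 and day 16 (11.6% higher). Leaving out each array in turn gave 4 to 7 for Dnmt1-/- against wt, 3 to 7 for the change in TKO against wt and 1 to 4 for that in Dnmt1-/- against wt. A further quantile normalization took Pcdhb2 in Dnmt1-/- below the line (-0.98). The replicate numbers are shared by all groups, and arrays of a number deviated together with r between 0.04 and 0.50 over 36 pairs of groups, 32 of them over 0.1 and 0 under -0.1. The sources name separate experiments and do not tie them to the numbers. With the number as a replicate block the counts were 7 in TKO and 7 in Dnmt1-/- against wt, and 3 in place of 2 for the change in Dnmt1-/- against wt. All members are dim and differences near the floor are compressed, so changes of a transcript could go unseen. The size of change that could be missed was not tested.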
